A study of Mus musculus with 14 samples.

Results

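The genes of the proteasome were taken as all entries whose symbol is Psm, a letter from a to e and a number. This gave 43 of the 24394 named genes: 16 of the core, 20 of the cap, 5 of the immunoproteasome and its activator (Psmb8, Psmb9, Psmb10, Psme1 and Psme2) and 2 other activators. Of these, 42 passed the filter for testing, a mean of at least 10 normalized counts over all libraries, and each of the 42 had a mean of at least 143 normalized counts in the IgG group alone. The exception was Psmb11, the thymus-specific catalytic subunit, which was listed at 0 in all 14 libraries.

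Microglia, the resident macrophages of the brain, were sorted from C57BL/6 mice aged 18 months as about 20000 living CD11b-positive, CD45-low cells per sample, and their RNA was sequenced. In both arms a pump delivered antibody into the cerebrospinal fluid for 1 month, which was an IgG control or a blocker of CD22, the sialic acid receptor of the Siglec family that inhibits signalling, so no group without infusion was compared. Each arm held 7 libraries from the side of the brain opposite the cannula, and no allele other than the strain is named for either arm. The labels do not state that each library is a separate animal, so p-values measure only the spread between these samples, which may be technical.

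The proteasome is the large protease that degrades proteins tagged with ubiquitin. Its 20S core is a barrel of alpha rings, which gate the entry, and beta rings, which hold the catalytic subunits Psmb5, Psmb6 and Psmb7, and its 19S cap is built of ATPases that unfold substrates and non-ATPases that bind and deubiquitinate them. In immune cells and after interferon, Psmb8, Psmb9 and Psmb10 take the places of Psmb5, Psmb6 and Psmb7 and form the immunoproteasome, and Psme1 and Psme2 form PA28, a cap without ATPases; both favour peptides for MHC class I. Microglia are known to express immunoproteasome subunits.

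Promoter sequence is shown for a pair of constitutive catalytic subunits and for a pair of immunoproteasome genes, because these 2 kinds of gene are known to be driven by different factors. Constitutive subunits are targets of Nfe2l1, which binds antioxidant response elements, whereas immunoproteasome genes respond to interferon. The windows are the RefSeq stretches (GRCm38.p6) from 250 bases before to 50 after each gene's start, and 36 of the 43 genes had one. The letters TGACNNNGC or TGAGNNNGC, searched on both strands as a plain form of the antioxidant response element, were in the windows of 7 of 12 core genes (58.3%), 7 of 17 cap genes (41.2%), 0 of 5 immunoproteasome genes and 8314 of all 27025 genes with a window (30.8%). Stretches of 120 bases that lie outside annotated exons are printed 5′ to 3′ on the gene's strand, with a match in capitals. They are chr14:54618023-54618142 (minus strand) for Psmb5, chr11:70525237-70525356 (plus strand) for Psmb6, chr8:105938445-105938564 (minus strand) for Psmb10 and chr14:55591114-55591233 (minus strand) for Psme2.
Psmb5: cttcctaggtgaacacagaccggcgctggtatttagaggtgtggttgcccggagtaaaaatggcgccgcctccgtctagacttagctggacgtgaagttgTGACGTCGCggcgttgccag
Psmb6: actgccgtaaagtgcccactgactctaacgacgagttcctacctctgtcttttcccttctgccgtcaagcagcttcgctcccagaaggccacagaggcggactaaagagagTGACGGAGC
Psmb10: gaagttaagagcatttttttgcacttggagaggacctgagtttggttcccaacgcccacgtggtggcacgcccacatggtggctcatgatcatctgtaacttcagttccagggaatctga
Psme2: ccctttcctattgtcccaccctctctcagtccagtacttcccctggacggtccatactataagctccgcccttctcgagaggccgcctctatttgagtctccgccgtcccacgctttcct
The match of Psmb5 begins at position -47 and that of Psmb6 at position -9, counted from the RefSeq start. The 4 printed stretches are not typical of all core genes. Among the other core genes with a stretch taken the same way, Psma6 held a match. Psma1, Psma2, Psma3, Psma5, Psmb3 and Psmb4 held none. A match is a description of letters, not of a bound site. The letters GAAA, then any 2 bases and GAAA again, a plain form of the interferon-stimulated response element searched on both strands, were in the windows of 1 of 5 immunoproteasome genes (Psme1), 1 of 12 core genes, 2 of 17 cap genes and 3.99% of all genes. CCAAT, the box bound by the factor NF-Y, on either strand was in 7 of 12 core, 5 of 17 cap and 1 of 5 immunoproteasome windows (Psmb9), against 41.1% of all genes. Psmb9 and the peptide transporter gene Tap1 start 225 bases apart on opposite strands of chromosome 17.

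Libraries held 20221836 to 38101421 reads in named genes over the 13 for which whole reads were taken. All 7 microglial markers were detected, with a summed level of 1548000 to 1813000 normalized counts with IgG and 1624000 to 1740000 with anti-CD22. The 6 neutrophil markers, all detected, had sums of 2.23 to 53130 (median 1341) with IgG and 0 to 10130 (median 2474) with anti-CD22. The 5 monocyte markers summed to 137 to 9257 with IgG and 98.4 to 2374 with anti-CD22. Of the T and NK cell markers Cd3e, Cd3g and Gzma were at 0 in all libraries, as was Ms4a1 of the B cells. The libraries also differed in how their values related to transcript length. Over genes, Spearman's rho of a library's deviation with length ran from -0.26 to -0.0034 with IgG, was 0.31, 0.29 and 0.33 in anti-CD22 replicates 1, 2 and 3, and 0.14, 0.13, -0.05 and -0.27 in replicates 4 to 7. The proteasome genes are short, with a median longest transcript of 1912.5 bases against 3340 for all genes tested. Results are therefore given with the length and GC trend of each library removed, and without anti-CD22 replicates 1 to 3.

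Levels were compared between genes only per length, as normalized counts per kb of the principal transcript. In the IgG libraries Psmb8, the immunoproteasome subunit that replaces Psmb5, stood highest of all proteasome genes at 4081 ± 240 per kb (SD, n = 7). Psmb6 followed at 3958 ± 373, a gap smaller than either SD, then the alpha subunit Psma1 at 3459 ± 244, the PA28 subunit Psme2 at 3444 ± 224, the ATPase Psmc3 at 3368 ± 252 and the alpha subunit Psma6 at 3366 ± 171, which did not differ beyond their spread. The other immunoproteasome genes were Psme1 at 2802 ± 243, Psmb10 at 2780 ± 216 and Psmb9 at 1172 ± 73.8 per kb. The lowest were Psme4, the nuclear activator PA200, at 57.5 ± 13.04 and Psma8, an alpha subunit known from the testis, at 84.4 ± 28.7 per kb. Above them came the 3 assembly chaperones, which are not part of the finished particle, at 341 ± 55.1 for Psmd9, 617 ± 69.5 for Psmd10 and 619 ± 70.9 for Psmd5.

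**Figure D1:**
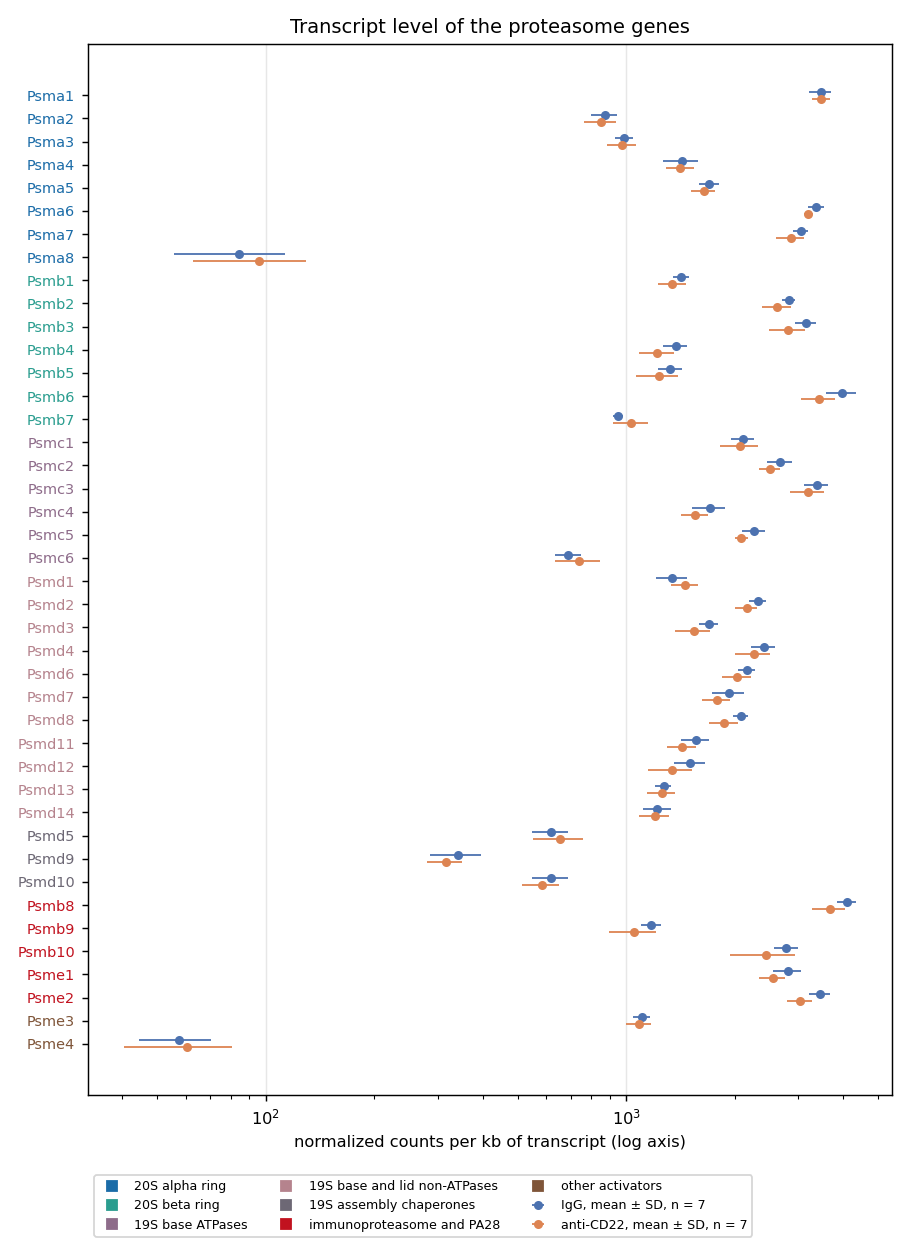
Normalized counts per kb of principal transcript (log axis) for the 42 proteasome genes tested, mean ± SD of 7 libraries per group, with gene names coloured by role. Psmb8 is highest with IgG at 4081 per kb, Psme4 (57.5) and Psma8 (84.4) are lowest, and the other genes lie at 341 or above.

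The effect of CD22 blockade was compared next. The proteasome genes were slightly lower on balance with anti-CD22, and none passed the test. Of 42 tested, 35 had a log2 fold change (anti-CD22 over IgG) below 0 (83.3%, against 49.8% of all 11646 genes tested) and 7 above, with a median of -0.10 against 0.0011 for all genes. At an adjusted p of 0.05 limma called 0 of the 42, where it called 0.00859% of all genes, and the lowest adjusted p was 0.285, for Psme2. At an unadjusted p under 0.05 it listed 6 lower with anti-CD22, against 5.95% of all genes, and 0 higher, against 6.8%. In either direction this was 6 of 42, against 12.8% of all genes. The 6 were Psme2, Psmb6, Psmd8, Psmb8, Psmb3 and Psmb4. On the reads of 13 libraries edgeR called 0 of the 42 (0.0% of all genes), with 3 at an unadjusted p under 0.05 (8.82% of all genes). DESeq2 called 0 (0.41% of the 7807 genes it gave an adjusted p), with 5 at an unadjusted p under 0.05 (10% of all genes). For no proteasome gene were the groups free of overlap, where 0.258% of all genes had groups that did not overlap. The SE of these log2 fold changes was small, with a median of 0.07 against 0.13 for all genes. Removing the length and GC trend left 25 of 42 lower (59.5%, against 47.2% of all genes) and a median of -0.02. Without anti-CD22 replicates 1 to 3, 32 of 42 were lower (76.2%, against 50.1%) and the median was -0.05.

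**Figure D2:**
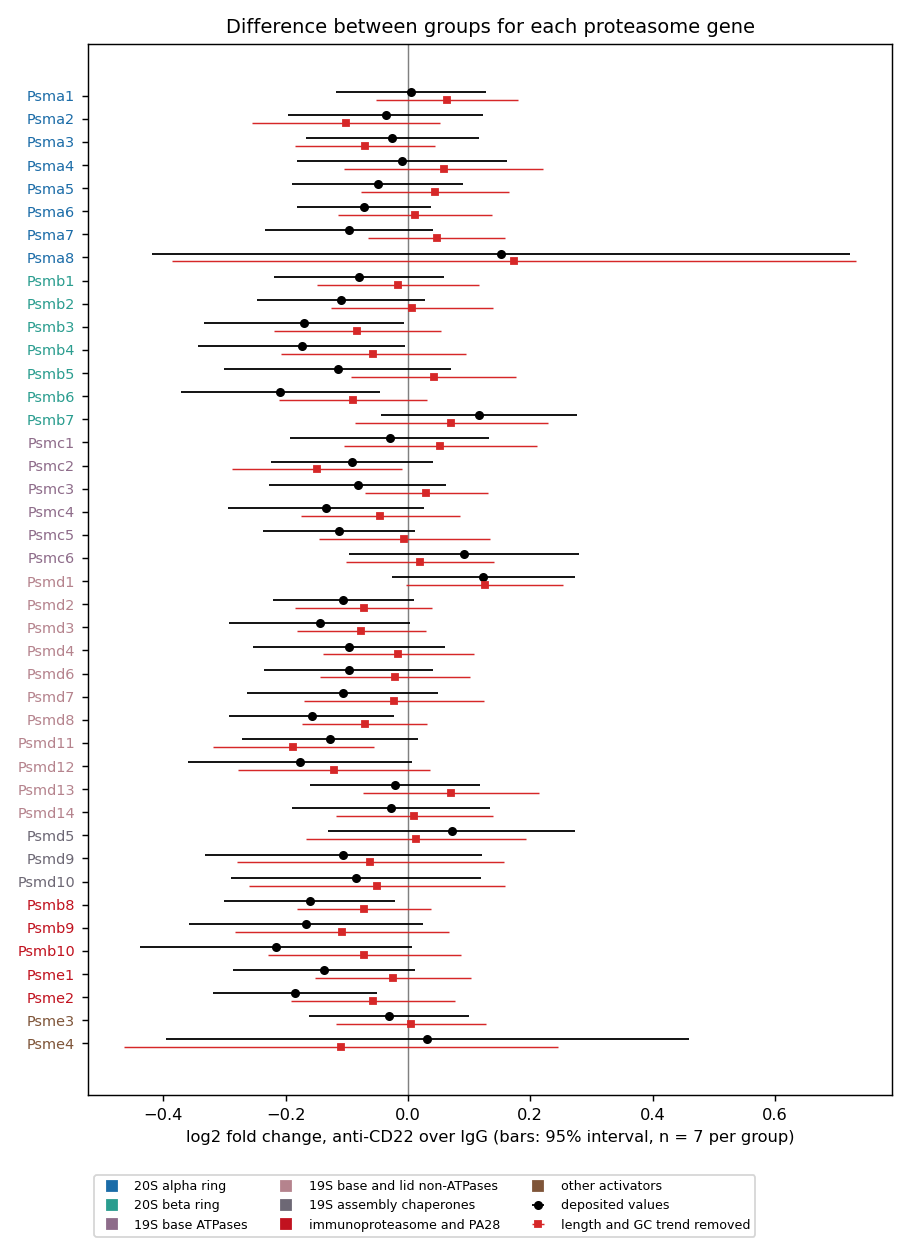
Log2 fold change of anti-CD22 over IgG with its 95% interval for the 42 proteasome genes (n = 7 per group), from the deposited values (black circles) and with each library's length and GC trend removed (red squares). Most black points lie left of 0, and the red points of the core and cap genes scatter around 0.

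On the deposited values the immunoproteasome and PA28 genes had the lowest median of the groups of genes. All 5 had fitted differences below 0, from -13.9% for Psmb10 to -9.10% for Psme1, and 0 of 5 passed the test, with limma adjusted p from 0.285 to 0.455. Their median log2 fold change was -0.17, against -0.07 for the core and -0.10 for the cap. All 5 were also below 0 with the trend removed, from -0.11 to -0.02 with a median of -0.07. Without anti-CD22 replicates 1 to 3 the median was -0.06 with 4 of 5 below 0, and it was no longer the lowest: the cap was also at -0.06, its non-ATPases at -0.07 and the 2 other activators at -0.14. In bulk RNA of sorted cells, fewer cells that express a gene and less RNA per cell cannot be told apart.

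Psmb8 (chromosome 17: 34197721 to 34201454, GRCm38, as for all coordinates here) is the chymotrypsin-like subunit of the immunoproteasome. Its lowest, median and highest normalized counts were 6048, 6720 and 7112 with IgG and 4896, 5990 and 6860 with anti-CD22. The groups overlapped, but 4 of 7 anti-CD22 libraries lay below every IgG library. The log2 fold change was -0.16 (SE 0.07, limma adjusted p = 0.344), -0.07 with the trend removed and -0.06 without anti-CD22 replicates 1 to 3.

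Psmb9 (chromosome 17: 34181987 to 34187764) takes the place of Psmb6 and had 1423, 1591 and 1693 normalized counts with IgG and 1061, 1441 and 1690 with anti-CD22. Anti-CD22 replicates 1 to 3 were the 3 lowest of the 14 libraries and replicate 4 was nearly the highest. The log2 fold change was -0.17 (SE 0.09, adjusted p = 0.455), and -0.02 without those 3 libraries. Its exons overlap those of Tap1 on the other strand, and the library kit named in the labels does not record strand, so reads of the overlap cannot be told apart.

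Psmb10 (chromosome 8: 105935735 to 105938444) is the trypsin-like subunit and takes the place of Psmb7. It had 3283, 3722 and 3950 normalized counts with IgG and 2313, 3350 and 4106 with anti-CD22. The anti-CD22 group spread on both sides of the controls: replicates 1 to 3 lay at 2766, 2313 and 2574, below every IgG library, and replicate 5 above every one. The log2 fold change was -0.22 (SE 0.11, adjusted p = 0.408), -0.07 with the trend removed and 0.0084 without anti-CD22 replicates 1 to 3.

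Psme1 (chromosome 14: 55578123 to 55581529), the alpha subunit of PA28, had 2779, 3120 and 3505 normalized counts with IgG and 2366, 2859 and 3061 with anti-CD22. Psme2 (chromosome 14: 55587441 to 55591113), the beta subunit, had 3069, 3260 and 3728 with IgG and 2560, 2918 and 3214 with anti-CD22. For both, 7 of 7 anti-CD22 libraries were below the IgG median, and for Psme2 5 of 7 were below every IgG library. The log2 fold changes were -0.14 (SE 0.07, adjusted p = 0.426) and -0.18 (SE 0.06, adjusted p = 0.285). With the trend removed they were -0.02 and -0.06, and without anti-CD22 replicates 1 to 3 they were -0.06 and -0.10. Psme2 has a copy on chromosome 11, Psme2b, that is 99.4% identical over 794 aligned bases and was given 152 to 232 normalized counts per library, 6.21% of the mean of Psme2, so the split of reads between them is uncertain. Psme1 overlaps Emc9 on the other strand.

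**Figure D3:**
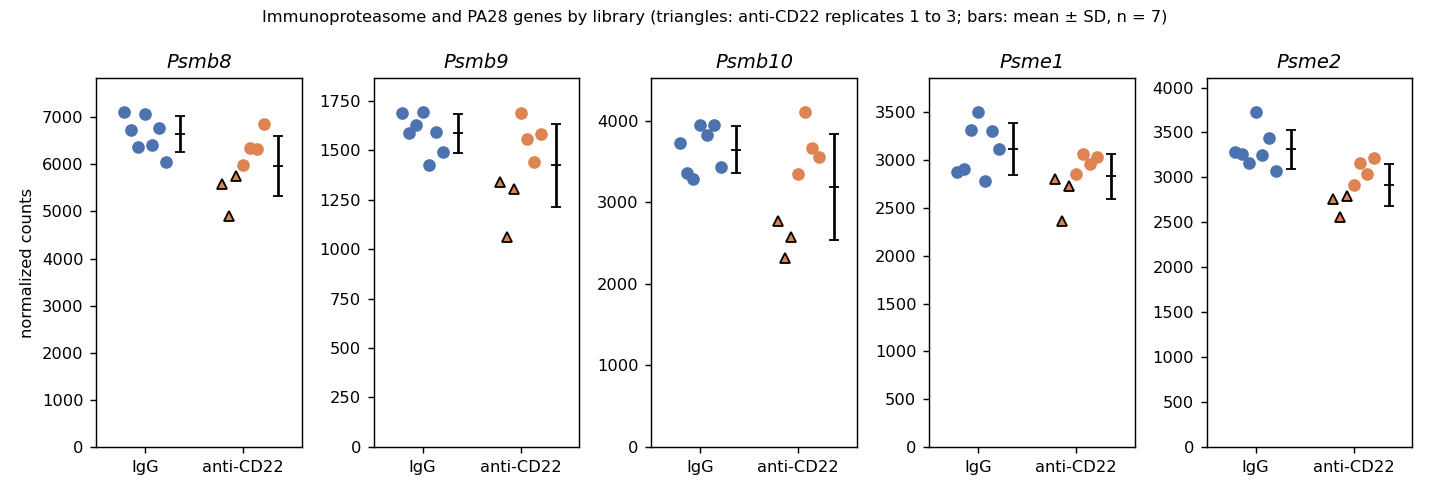
Normalized counts of the 5 immunoproteasome and PA28 genes in each of the 14 libraries, with mean ± SD per group (n = 7) and anti-CD22 replicates 1 to 3 as triangles. The triangles are the lowest anti-CD22 points in all 5 panels, and the other anti-CD22 libraries lie within or near the IgG range.

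The 5 genes were low together in the same libraries. The mean of their log2 values, each centred on its mean over the 14 libraries, was -0.17, -0.40 and -0.20 in anti-CD22 replicates 1, 2 and 3, from -0.0076 to 0.09 in replicates 4 to 7 and from 0.0052 to 0.22 in the IgG libraries. These 3 are also the libraries with the steepest length trend, and the part of that trend in the result was not tested beyond the values with it removed, which were -0.01, -0.24 and -0.05. The SD of this mean of 5 genes over the 14 libraries was 0.14. It was 0.08 for the 15 core genes and 0.06 for the 20 cap genes, but a mean over more genes varies less by construction. The part of other myeloid cells in the result was not tested. IgG replicate 1 had the highest neutrophil and monocyte sums (53130 and 9257) and 7112 normalized counts of Psmb8, while IgG replicate 4, with a neutrophil sum of 2.23, had 7078. Without IgG replicate 1 the median log2 fold change of the 5 genes was -0.16. Anti-CD22 replicate 2, the lowest for all 5, had the highest sum of border-associated macrophage markers, 2308 normalized counts, and without it the median was -0.11.

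Correlations were computed for the 10 pairs of these genes on log2 values over the 14 libraries, with two-sided permutation tests of 100000 resamples. Pearson's r ran from 0.72 to 0.929, and all 10 had an adjusted p of at most 0.00364. Psmb8 and Psme2 gave the highest, r = 0.929 and Spearman's rho = 0.952, each with p = 1e-05, the smallest these permutations can give, and an adjusted p of 0.0001. Psmb9 and Psmb10 gave the lowest rho, 0.442 (permutation p = 0.115), with r = 0.794 (permutation p = 0.00139). Leaving out the 2 libraries farthest from the median of the first gene brought r to between 0.381 and 0.867. Within groups r ran from 0.0835 to 0.767 with IgG and from 0.835 to 0.977 with anti-CD22. Without anti-CD22 replicates 1 to 3 (n = 11) it ran from -0.115 for Psmb9 and Psmb10 to 0.811 for Psmb8 and Psme2, and 9 of 10 pairs were at 0.597 or below. On values with the trend removed, 3 of 10 pairs had an adjusted permutation p under 0.05: Psmb8 and Psmb9 (r = 0.769, adjusted permutation p = 0.0235), Psmb10 and Psme2 (r = 0.709, 0.0235) and Psmb8 and Psmb10 (r = 0.651, 0.0476). The points of a pair share library, size factor and depth.

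Over all genes tested, those whose values deviated most like Psmb8 from their group means over the 14 libraries were, outside the proteasome, Exosc3 of the RNA exosome (Pearson's r = 0.88), the translation factor Eif5a (0.874), the actin-binding profilin Pfn1 (0.87), the replication licensing factor Cdt1 (0.868) and the RNA polymerase II subunit Polr2d (0.866). Psme2 ranked 1st of all with 0.902, Psmb9 29th, Psmb10 58th and Psme1 540th. After removal of the length and GC trend, r with Psmb8 was 0.467 for Psme2, 0.733 for Psmb9, 0.622 for Psmb10 and 0.306 for Psme1. It was 0.569 for Eif5a and 0.709 to 0.845 for the other 4 genes named.

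Whether the balance between immunoproteasome and constitutive subunits differed was described next, by the log2 ratio of the 2 values within a library, which does not depend on the library's scale. For Psmb8 over Psmb5 it was 2.48 ± 0.15 (SD, n = 7) with IgG and 2.44 ± 0.08 with anti-CD22, a difference of -0.05 that is smaller than either SD. For Psmb9 over Psmb6 it was -0.99 ± 0.13 and -0.95 ± 0.17, a difference of 0.04 and again within the spread. For Psmb10 over Psmb7 it was 1.72 ± 0.13 with IgG and 1.39 ± 0.30 with anti-CD22, a difference of -0.33, and 4 of 7 anti-CD22 libraries (replicates 1, 2, 3 and 7) lay below every IgG library. That difference exceeded either SD and was not tested. The 3 differences were -0.11, -0.02 and -0.14 with the trend removed. Without anti-CD22 replicates 1 to 3 they were -0.05, 0.10 and -0.14. In that last setting the log2 fold change was 0.0084 for Psmb10 and 0.14 for Psmb7. Anti-CD22 replicate 7 had 3554 normalized counts of Psmb10, within the IgG range, and 1480 of Psmb7, above every other library. Psmb7 also overlaps Nek6 on the other strand. After removal of the trend, the SDs with IgG and anti-CD22 were 0.109 and 0.105 for Psmb8 over Psmb5, so its difference of -0.114 exceeded both. For Psmb10 over Psmb7 they were 0.16 and 0.13, so its difference lay within the IgG SD. Per kb of transcript the immunoproteasome subunit held 75.5% ± 1.93 of the Psmb8 and Psmb5 sum with IgG and 74.9% ± 1.08 with anti-CD22. It held 22.9% ± 1.62 and 23.5% ± 2.19 for Psmb9 with Psmb6, and 74.5% ± 1.70 and 69.8% ± 4.37 for Psmb10 with Psmb7. In both groups the level per kb was higher for Psmb8 and Psmb10 than for the subunits they replace, and higher for Psmb6 than for Psmb9. Per coding length the IgG shares were 84.2%, 35.4% and 77.0%, in the same order of pairs.

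**Figure D4:**
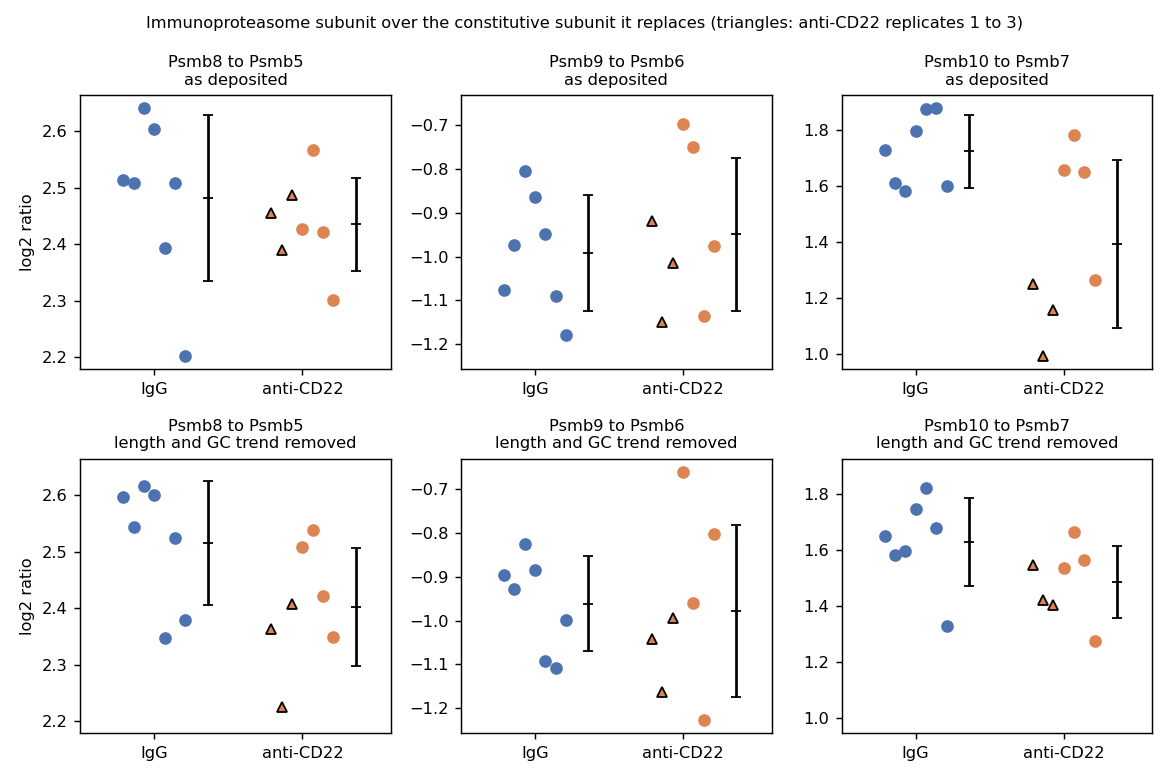
Log2 ratio of each immunoproteasome subunit to the subunit it replaces in each library, with mean ± SD (n = 7), from deposited values (top) and with the length and GC trend removed (bottom), anti-CD22 replicates 1 to 3 as triangles. For Psmb10 over Psmb7 the triangles lie below the IgG points in the top row and within the IgG range in the bottom row.

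Of the 3 constitutive catalytic subunits, Psmb5 and Psmb6 had log2 fold changes below 0 and Psmb7 above. None passed the test, and the difference between them was not tested. Psmb6 (chromosome 11: 70525367 to 70527858), the caspase-like subunit whose promoter is printed above, had 2749, 3112 and 3559 normalized counts with IgG and 2355, 2631 and 3165 with anti-CD22, and 5 of 7 anti-CD22 libraries lay below every IgG library. Its log2 fold change was -0.21 (SE 0.08, limma adjusted p = 0.301), -0.09 with the trend removed and -0.12 without anti-CD22 replicates 1 to 3. Psmb5 (chromosome 14: 54614119 to 54618022), the chymotrypsin-like subunit, had 1018, 1190 and 1314 with IgG and 933, 1068 and 1391 with anti-CD22. Its groups overlapped widely, and the difference of -0.12 in log2 (SE 0.09, adjusted p = 0.598) turned to 0.04 with the trend removed and was -0.0070 without anti-CD22 replicates 1 to 3. Psmb7 (chromosome 2: 38588036 to 38644087), the trypsin-like subunit, had 1044, 1099 and 1135 with IgG and 1061, 1164 and 1480 with anti-CD22. It was the only tested beta subunit above 0, and 6 of 7 anti-CD22 libraries lay above every IgG library, the difference being 0.12 in log2 (SE 0.08, adjusted p = 0.529). That value was 0.07 with the trend removed, 0.14 without anti-CD22 replicates 1 to 3 and 0.06 without anti-CD22 replicate 7, the library at 1480. Psmb7 overlaps Nek6, a kinase gene with a mean of 6054 normalized counts, on the other strand, so reads of the overlap cannot be told apart.

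Within the core, the 7 tested beta genes, Psmb5 to Psmb7 included, had a median log2 fold change of -0.12 with 6 below 0, and the 8 alpha genes a median of -0.03 with 6 below 0. The difference between the rings was not tested, and without anti-CD22 replicates 1 to 3 the medians were -0.03 and -0.02. Psmb3, a structural beta subunit, had 2197, 2442 and 2639 normalized counts with IgG and 1751, 2212 and 2508 with anti-CD22 (log2 fold change -0.17, SE 0.08, adjusted p = 0.377). Psmb4, another structural beta subunit, had 1449, 1655 and 1818 with IgG and 1256, 1440 and 1680 with anti-CD22 (-0.17, SE 0.08, adjusted p = 0.383). For both, 6 of 7 anti-CD22 libraries were below the IgG median, and without anti-CD22 replicates 1 to 3 both log2 fold changes were -0.06. The alpha genes with the smallest p were Psma7, at 2597, 2816 and 2974 with IgG and 2336, 2706 and 2955 with anti-CD22, and Psma6, at 3287, 3455 and 3743 with IgG and 3217, 3337 and 3489 with anti-CD22. Their log2 fold changes of -0.10 (SE 0.07, adjusted p = 0.541) and -0.07 (SE 0.05, adjusted p = 0.572) were 0.05 and 0.01 with the trend removed. The other 7 core genes, Psma1 to Psma5, Psmb1 and Psmb2, had log2 fold changes from -0.11 for Psmb2 to 0.0053 for Psma1. Psma8, at 143 ± 48.6 (SD, n = 7) normalized counts with IgG and 162 ± 56.2 with anti-CD22, had 0.15 with an SE of 0.27. The 15 core genes had a median of 0.01 after removal of the trend, with 9 above and 6 below 0. Without anti-CD22 replicates 1 to 3 their median was -0.03, with 11 below 0.

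The cap genes differed little and mostly in 1 direction. Of 20 tested, 17 were below 0, with a median of -0.10, and 0 passed the test. With the trend removed 13 were below 0 and the median was -0.02, and without anti-CD22 replicates 1 to 3 these were 15 and -0.06. Among the 6 ATPases (median -0.09), Psmc5 had 2692, 2939 and 3250 normalized counts with IgG and 2588, 2766 and 2947 with anti-CD22, and Psmc4 had 2160, 2321 and 2860 with IgG and 2006, 2295 and 2509 with anti-CD22. Both overlapped widely, with log2 fold changes of -0.11 (SE 0.06, adjusted p = 0.431) and -0.13 (SE 0.08, adjusted p = 0.470). These were -0.0056 and -0.05 with the trend removed, and -0.10 and -0.04 without anti-CD22 replicates 1 to 3.

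Among the 11 non-ATPases of base and lid (median -0.11, 10 of 11 below 0), Psmd8, a lid subunit, had 2961, 3135 and 3361 normalized counts with IgG and 2570, 2822 and 3208 with anti-CD22. Of its anti-CD22 libraries 4 of 7 lay below every IgG library, and the log2 fold change was -0.16 (SE 0.06, adjusted p = 0.338), or -0.07 both with the trend removed and without anti-CD22 replicates 1 to 3. Psmd3, also of the lid, had 3318, 3623 and 3954 with IgG and 2913, 3351 and 3893 with anti-CD22 (-0.14, SE 0.07, adjusted p = 0.406; -0.08 with the trend removed and -0.03 without anti-CD22 replicates 1 to 3). The exception above 0 was Psmd1, the large scaffold of the base, at 0.12 (SE 0.07, adjusted p = 0.473), and 6 of 7 anti-CD22 libraries exceeded the median of the IgG group. With the trend removed, 2 of 42 proteasome genes had an unadjusted p under 0.05, against 9.62% of all genes: the lid subunit Psmd11 (-0.19, adjusted p = 0.359) and the ATPase Psmc2 (-0.15, adjusted p = 0.499). Psmd1, Psmd11 and Psmc2 are named after their values were seen. The 3 assembly chaperones had a median of -0.08. Psmd9 had 702, 860 and 1087 with IgG and 708, 786 and 972 with anti-CD22 (-0.11, SE 0.11, adjusted p = 0.703). Psmd10, known as gankyrin, had 726, 886 and 1017 with IgG and 688, 813 and 991 with anti-CD22 (-0.08, SE 0.10, adjusted p = 0.739), and the chaperone Psmd5 had a log2 fold change of 0.07.

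The other activators showed no common direction. Psme3, which forms the nuclear PA28 gamma ring, had 2764, 2965 and 3247 normalized counts with IgG and 2588, 2804 and 3283 with anti-CD22, and its difference was -0.03 in log2 (SE 0.06, adjusted p = 0.867). Psme4 had 274, 324 and 479 with IgG and 196, 422 and 616 with anti-CD22. The difference for Psme4, 0.03 in log2 (SE 0.20, interval at 95% from -0.40 to 0.46), was -0.11 with the trend removed and -0.25 without anti-CD22 replicates 1 to 3.

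**Figure D5:**
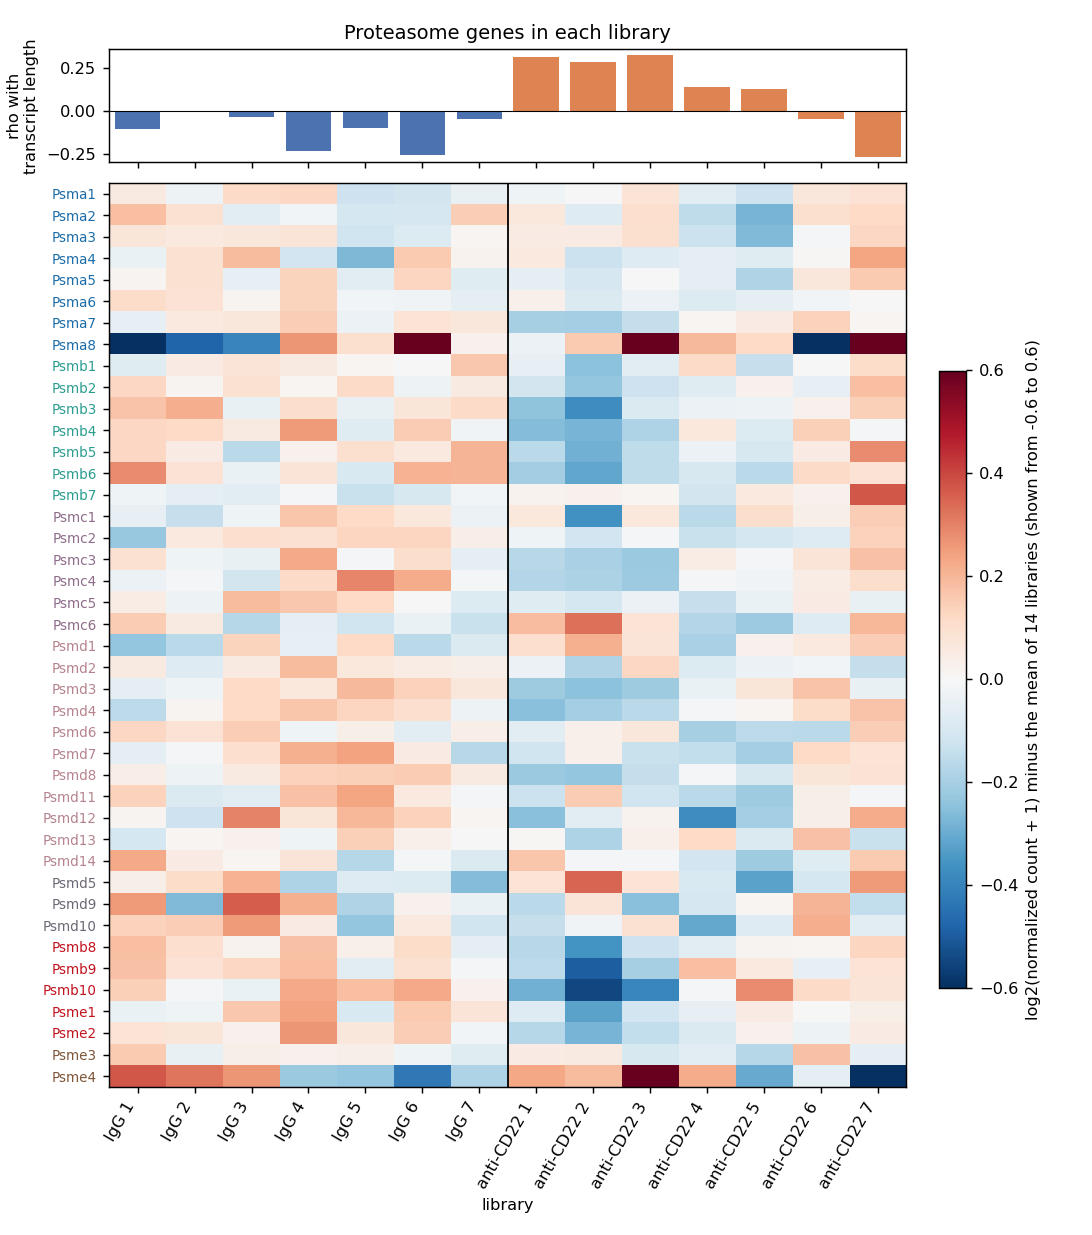
Each tested proteasome gene (row) in each library (column) as log2 of the normalized count plus 1 minus its mean over the 14 libraries, blue below and red above it, with bars on top for Spearman's rho of each library's values with transcript length. Anti-CD22 replicates 1 to 3 (rho 0.31, 0.29 and 0.33) are blue for the 5 immunoproteasome genes and for most beta subunits, and anti-CD22 replicate 7 (rho -0.27) is red for most core genes.

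The centred mean of the 15 core genes was lowest in anti-CD22 replicate 2 (-0.14, with 12 of 15 below their mean) and highest in anti-CD22 replicate 7 (0.17, with 2 of 15 below). With the trend removed, replicate 7 was at 0.0088 and replicate 2 at -0.11. The centred mean of the cap genes ran from -0.11 in anti-CD22 replicate 4 to 0.09 in IgG replicate 4.

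Other genes of the pathway were read from fixed lists, none of which held a gene past the adjusted threshold by limma, edgeR or DESeq2. At an unadjusted p under 0.05, limma listed 4, 1, 0 and 3 genes of the 4 lists in the order given here, edgeR 1, 1, 0 and 3, and DESeq2 2, 1, 0 and 3, where these tools listed 12.8%, 8.82% and 10% of all genes. Of 24 assembly factors, regulators and delivery factors, 9 were above and 15 below 0, with a median of -0.07. Pomp, the chaperone that completes the core and favours the immunoproteasome, differed by -0.18 in log2 (SE 0.08, adjusted p = 0.344), or -0.06 without anti-CD22 replicates 1 to 3, and the shuttle factor Ubqln1 0.15 (SE 0.06, adjusted p = 0.322). Of 6 genes for ubiquitin and its activating enzymes, 2 were above and 4 below 0. The polyubiquitin gene Ubb had 9804, 10983 and 11981 normalized counts with IgG and 7204, 8787 and 10985 with anti-CD22 (-0.27, SE 0.08, adjusted p = 0.213; -0.15 with the trend removed and -0.14 without anti-CD22 replicates 1 to 3). Of 8 tested genes for transcriptional control, 7 were above and 1 below 0, with a median of 0.06. Removal of the length and GC trend left 4 above and 4 below, with a median of 0.02. Nfe2l1 had 0.18 (SE 0.12, adjusted p = 0.516) and the NF-Y subunit Nfya 0.21 (SE 0.13, adjusted p = 0.506). Of 15 interferon-inducible regulators and class I loading genes, 5 were above and 10 below 0, with a median of -0.03. Removal of the trend turned this to 9 above and 6 below, with a median of 0.01. Irf8, an interferon regulatory factor of myeloid cells, had 29184, 31018 and 33695 with IgG and 23356, 25267 and 31223 with anti-CD22 (-0.24, SE 0.07, adjusted p = 0.212; -0.21 with the trend removed and -0.12 without anti-CD22 replicates 1 to 3). Erap1, which trims peptides for MHC class I, differed by 0.25 in log2 (SE 0.07, adjusted p = 0.229), by 0.11 with the trend removed and by 0.15 without anti-CD22 replicates 1 to 3.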

How the data were processed

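RNA of sorted microglia was sequenced with paired reads of 100 bp. Per the submitters' processing notes and design text, bcl2fastq separated the libraries, STAR aligned the reads to mm10, SummarizedExperiment gave counts per gene and DESeq2 was used on them. Their versions and the gene annotation were not given in the sources used here. What the authors deposited are normalized counts, which is to say a signal that the authors scaled by 1 size factor per library. Titles gave the group and number of each library. Of 24421 entries, 27 whose names had become dates (at most 0.149% of any library's counts) were left out, and 8433 of the 24394 others were at 0 in all 14 libraries. The members, lists, tests and named-gene rule were chosen with earlier results of these data known.

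Groups were compared with limma, after adding 1 to each normalized count and taking log2, with a mean-variance trend, two-sided, for 11646 genes with a mean of at least 10, with Benjamini-Hochberg adjustment over all of them at 0.05. Every value was a whole multiple of 1 step per library within a tolerance of 0.1 (100% of values). Whole reads were taken for 13 libraries. Anti-CD22 replicate 3, with a step of 1.009, was left out by a rule against steps near 1, so the count models lack it. On these reads edgeR called 0 genes and DESeq2 32. The reads carry no molecular identifiers, so they may repeat the same molecule. The longest transcript of each gene in GENCODE vM21 (GRCm38) gave its length and GC content, and each library's trend was removed with natural splines of 5 degrees of freedom. Levels per kb use the APPRIS principal transcript. Promoters and starts came from RefSeq. In simulated counts for 11646 genes, 7 against 7, the test found 46 of the 100 genes set to a fold of 1.5 and 77 of the 100 set to a fold of 2, with 6 false calls. Changes under 1.5-fold, as seen here, were not simulated. The changed genes were drawn at random from all genes tested and no length trend was put into these counts. The rates found therefore do not describe the proteasome genes.

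Values over libraries are given as lowest, median and highest for the immunoproteasome genes, the subunits they replace and, in each other role, the 2 genes with the smallest p; from each further list up to 2 are named, and for Psmb8 the 5 most alike genes. Of the lists, 3 genes were found under older symbols. The comparison was repeated with a replicate block, count models, libraries left out, array weights, no variance trend, and other scalings, filters and pseudocounts. The fit with both trend removal and a replicate block, and limma on the 13 libraries of the count models, were added after seeing the data. Versions used here: Python 3.11.15, scipy 1.17.1, pandas 2.3.3 and matplotlib 3.10.9 for tables, permutations and figures, and DESeq2 1.42.0, limma 3.58.1 and edgeR 4.0.16 under R 4.3.3 for the fits.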

Additional observations from a re-analysis of the deposited data

Results flagged for a closer look

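Psmb7 stood at 1480 normalized counts in anti-CD22 replicate 7, while the other 6 anti-CD22 libraries lay between 1061 and 1193. The gap to the nearest library was 0.685 of the group's whole range, above Dixon's 95% critical value of 0.568 for 7 libraries. It was the 1 such case among 46 groups of values checked. Chance alone gives a case in about 1 of every 20 groups, so 1 among 46 is no more than chance gives. The same library had the lowest rho with transcript length (-0.27), and Psmb7 overlaps Nek6 on the other strand; their part in this value was not tested.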

How the results depend on the processing

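The number of proteasome genes past the threshold was 0 under every alternative run. The number of all genes past it, 1, was 0 without the mean-variance trend, with the length and GC trend removed, without anti-CD22 replicates 1 to 3, by edgeR and by limma on the same 13 libraries, 8 with array weights, 2 with the replicate block and 32 by DESeq2. Leaving out 1 library gave 0 to 43, with 43 without anti-CD22 replicate 7; the cause was not tested. With the trend removed, alone or with the replicate block, the core median was 0.011 and the cap median -0.022. Among the proteasome genes whose lowest, median and highest counts are given, Psmb5 (0.042), Psma7 (0.047), Psma6 (0.011), Psme3 (0.0054) and Psme4 (-0.11) changed sign there. Of the other proteasome genes, Psma4, Psma5, Psmb2, Psmc1, Psmc3, Psmd13 and Psmd14 changed sign with the trend removed. Without anti-CD22 replicates 1 to 3, Psmb10 (0.0084), Psma7 (0.0031) and Psme4 (-0.25) changed sign. So did Psma1, Psma4, Psmc1, Psmc3, Psmc6, Psmd4, Psmd5 and Psmd13 of the other proteasome genes. Psme4 also changed sign by edgeR (-0.065), DESeq2 (-0.069) and limma on 13 libraries (-0.088), and on leaving out 1 library (range -0.088 to 0.19): -0.0025, -0.0045 and -0.037 without IgG replicates 4, 5 and 6, and -0.0040, -0.088 and -0.0027 without anti-CD22 replicates 1, 3 and 4. The medians of the groups of genes, on leaving out 1 library, ran from -0.08 to -0.04 (core), -0.12 to -0.08 (cap) and -0.20 to -0.11 (immunoproteasome). The ratio of Psmb10 to Psmb7 ran from -0.40 to -0.26. No pairing of the libraries by number was seen, with correlations of same-numbered deviations from -0.145 to 0.16. Of the libraries, 2 IgG and 0 anti-CD22 correlated best with their own number. With 7 libraries per group these correlations cannot exclude a paired design. With the replicate block the immunoproteasome median was -0.17 and no proteasome gene was called. Psma8 and Psme4 were the least abundant of the 42, with IgG means of 143 and 373 normalized counts, and had the largest SEs, 0.27 and 0.20. The part of depth in these SEs was not tested.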
